A study of Homo sapiens with 6 samples.

Results

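The 10 genes described here encode the NF-kappaB transcription factor and its close regulators: the subunits RELA, RELB, REL, NFKB1 and NFKB2, the inhibitors NFKBIA, NFKBIB and NFKBIE, the related nuclear protein BCL3, and TNFAIP3, an enzyme that edits ubiquitin chains and damps the pathway. They were selected by gene name, and every probe of each was taken: 12 probes, of 50586 for cell RNA, and 10 gene names of 36328. The family itself was chosen from a contrast of these same arrays, in which a RELA probe had been among the higher probes of smallest p. Every difference between NUDT16 and mock arrays given below for a member is therefore a description, with no test.

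The RNA came from MOLT-4, an established cell line from a T-cell acute lymphoblastic leukaemia. One group, called mock, received an empty vector, and the other received NUDT16, which encodes a decapping enzyme that the series' title describes as epigenetically silenced in this leukaemia. RNA with an m3G or m7G cap was immunoprecipitated from total RNA, copied into Cy3-labelled cDNA and hybridised to 1-colour Agilent arrays, 3 per group. All arrays represent 1 cell line. Nothing in the labels says that the replicates were separate cultures, so an error given here measures the spread between arrays, which may be technical. Input RNA was not analysed here, so less of a transcript and less of its capped form cannot be told apart, and neither can fewer cells with a transcript and less of it per cell.

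NF-kappaB proteins work as pairs of subunits that share a DNA-binding Rel domain. RELA, RELB and REL also carry an activating tail, whereas NFKB1 and NFKB2 are made as long precursors that are trimmed to the DNA-binding forms p50 and p52. In a resting cell the inhibitors of the IkappaB class hold the pairs in the cytoplasm, and a stimulus leads to their phosphorylation and destruction. The freed pairs bind kappaB sites and switch on, among many genes, several of their own inhibitors, which closes a feedback loop. In T cells the pathway acts downstream of the antigen receptor and of receptors of the tumour necrosis factor family.

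The family's promoter sequences, which the choice of members did not use, were searched for kappaB sites. RefSeq promoter windows (GRCh38.p14, from 250 bases before to 50 bases after a transcription start) were found for 8 of the 10 genes, in 13 windows; RELB and NFKBIE were not matched. The 10-base kappaB consensus, searched on both strands, occurred in at least 1 window of 7 of these 8 genes, in 8 of 13 windows. Over all promoter windows of the same length the share was 5.91% (2075 of 35116), and 7.09% of genes had such a window. These matches are shown because several members are known targets of NF-kappaB. In the lines that follow, capitals mark the match, or overlapping matches on both strands, and lower case marks its flanks.
REL, chr2:60881518-60881547, plus strand: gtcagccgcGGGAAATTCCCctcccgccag
NFKB1, chr4:102501300-102501329, plus strand: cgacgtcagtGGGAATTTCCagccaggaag
NFKB2, chr10:102394462-102394491, plus strand: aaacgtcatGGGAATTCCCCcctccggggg
NFKB2, chr10:102395674-102395703, plus strand: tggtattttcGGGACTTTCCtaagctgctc
NFKBIA, chr14:35404811-35404840, minus strand: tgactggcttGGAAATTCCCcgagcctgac
NFKBIB, chr19:38899932-38899961, plus strand: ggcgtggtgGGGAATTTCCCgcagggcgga
TNFAIP3, chr6:137867182-137867211, plus strand: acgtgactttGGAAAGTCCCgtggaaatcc
BCL3, chr19:44748700-44748729, plus strand: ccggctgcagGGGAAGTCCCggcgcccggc
REL, NFKB1, NFKBIA and NFKBIB had 1 stretch each, beginning 47, 49, 81 and 28 bases before the start. TNFAIP3 had 2 neighbouring stretches, at 67 and 55 bases before it. NFKB2 had 4, of which the first and the last are printed, the last at 21 bases before a start. The BCL3 match began 2 bases after the start. Neither RELA window held a match. A match describes letters and does not show that a factor binds there, and no binding was measured in these arrays.

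The probes that carry the results are 60-base oligonucleotides, of which the first 30 bases are shown as the array files give them, to set apart the probes that read the same gene. Positions are on hg19. Exon and untranslated-region positions are not given, since no annotation on hg19 was used here.
RELA, probe A_23_P104689, chr11:65421651-65421710, minus strand: ttattcttttattgtcagtatctgtatctc
RELA, probe A_33_P3209433, chr11:65421986-65422045, minus strand: acacaactgagcccatgctgatggagtacc
RELB, probe A_23_P55706, chr19:45541385-45541444, plus strand: cagacttgaaggtggggggtaggttggttg
REL, probe A_23_P56938, chr2:61149596-61149655, plus strand: cagtattcaggtattggcagtatgcaaaat
TNFAIP3, probe A_24_P157926, chr6:138203679-138203738, plus strand: ccttatgaaactccagctatgtaataaaaa
NFKBIA, probe A_23_P106002, chr14:35870788-35870847, minus strand: tgatgtggggtgaaaagttactacctgtca
NFKBIB, probe A_33_P3343545, chr19:39397888-39397947, plus strand: tccacaaagatgtggagatggtccggctgc
NFKBIB, probe A_23_P330895, chr19:39398611-39398670, plus strand: gcaagaattggagaactcacactgcgaaaa
The RELA probes differ in GC content, 35.0% in the first and 55.0% in the second. The other members' probes lie between 35.0% and 55.0%.

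The arrays were of unequal quality, and 1 of them stands apart. The share of spots well above background, a call of the scanner software, was 39.3% to 51.1% on mock arrays and 42.3% and 52.0% on NUDT16 replicates 1 and 3, but 14.6% on NUDT16 replicate 2. Signals below are log2 processed intensities minus the 75th percentile, on the same array, of the 6582 probes well above background on all 6 arrays. A value of 0 is thus a bright probe, and levels are compared between arrays, not between probes. The lowest signal called well above background lay between -8.02 and -7.05 on 5 arrays and at -3.52 on NUDT16 replicate 2, so a member needed a much higher scaled signal to be measured there. The 2 arrays with the same replicate number shared a slide and a scan, and a slide held 1 mock and 1 NUDT16 array. Both NUDT16 probes stayed at background on all 6 arrays and so did not check the labels. The single called probe of the whole comparison was for the pseudogene NUDT16P1. It rose from -9.55 ± 0.36 (SD, n = 3) over the mock arrays, where it was at background, to -2.64 ± 0.58 (SD, n = 3) over the NUDT16 arrays. The other NUDT16P1 probe was at background on all 6 arrays. Of 25 T-lineage markers, 21 were well above background on all 3 mock arrays, among them CD3E, LCK, CD1A and DNTT. On all mock arrays 2 of 5 epithelial markers (KRT8 and KRT18) were also detected, and 0 of 8 myeloid and 0 of 5 fibroblast markers. Mock replicates 1 and 3 each detected 3 myeloid markers, whereas the 5 fibroblast markers were detected on no array.

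Messenger RNA of most of the family was recovered in the cap immunoprecipitate. All 3 mock arrays measured 8 of the 10 genes (RELA, RELB, REL, NFKB2, NFKBIA, NFKBIB, NFKBIE and TNFAIP3), which is why their 10 probes were tested in the fit over 17765 probes. All of these probes except those of RELB, NFKBIA, NFKBIE and the first of RELA entered through the mock arrays alone, since NUDT16 replicate 2 did not measure them. Well above background on all 6 arrays were 4 of the 10 tested probes, against 37.1% of all tested probes. NFKB1 and BCL3 did not pass the filter and have no fitted value.

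**Figure D1:**
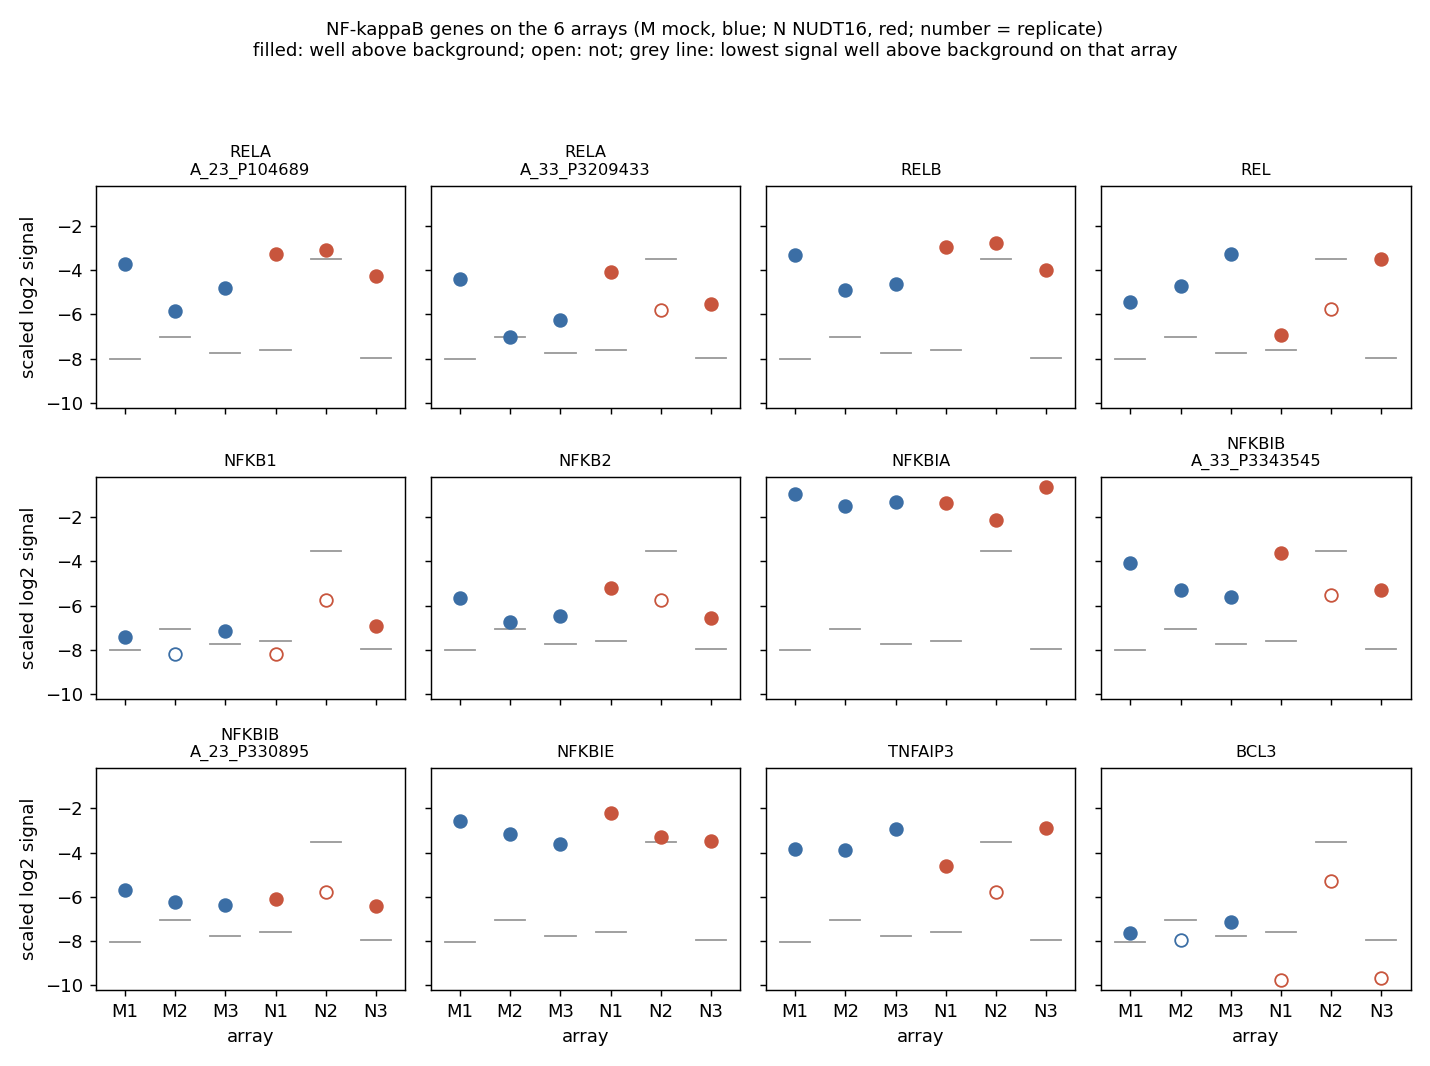
Scaled log2 signal (vertical axis) of each NF-kappaB probe on the 6 arrays (horizontal axis), with blue for mock and red for NUDT16; filled points were well above background, open points were not, and the grey line is the lowest signal called well above background on that array. On NUDT16 replicate 2 that line lies at -3.52, above 8 of the 12 points of that array, while RELA (first probe), RELB, NFKBIA and NFKBIE lie above it.

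Among the subunits, RELA and RELB, the partners through which the canonical and the alternative branch of the pathway respectively activate genes, read higher in NUDT16 than in mock arrays in each same-numbered pair. The first RELA probe had scaled signals of -3.74, -5.87 and -4.82 on mock replicates 1, 2 and 3, and of -3.28, -3.09 and -4.28 on the NUDT16 replicates. Mock replicate 2 was the lowest and NUDT16 replicate 2 the highest of the 6, and the groups overlapped. The probe averaged -4.81 ± 1.07 (SD, n = 3) over the mock and -3.55 ± 0.64 (SD, n = 3) over the NUDT16 arrays, a log2 difference of 1.25 with a standard error of 0.70 in limma, or 0.51 with the replicate number as a block. Within slides the difference was 0.45, 2.78 and 0.54. Replicate 2 therefore supplied most of it, and on replicates 1 and 3 alone the paired difference was 0.49. It was 0.72 without mock replicate 2.

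The RELA value on NUDT16 replicate 2 sat close to the limit of that array. The probe was printed in 10 copies, and their intensities there ran from 20.4 to 35.0, with an SD of 0.24 on the log2 scale and 9 of 10 copies well above background. On mock replicate 2 the copies ran from 40.0 to 53.7 (SD 0.16), and on the 4 other arrays the SD over copies was 0.052 to 0.096. In unscaled terms RELA was thus dimmer on NUDT16 replicate 2 (mean intensity 26.2) than on mock replicate 2 (46.2), and it is the scaling of a dim array that places it higher. Its scaled signal was 0.43 above the lowest one called well above background on that array, and its mock partner lay 2.35 below that limit. Such a probe could appear on NUDT16 replicate 2 only by being higher there: of the 10541 tested probes that lay below this limit on mock replicate 2, 11.8% were well above background on NUDT16 replicate 2, and of the 8 member probes below it RELA and RELB were.

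The second RELA probe had the same direction where it could be measured, though its difference over all arrays turned negative without scaling (-0.25) and with quantile normalization (-0.46). Its mock signals were -4.41, -7.02 and -6.24, next to -4.08 and -5.52 on NUDT16 replicates 1 and 3, and the probe was not well above background on NUDT16 replicate 2. NUDT16 was higher by 0.33 and 0.72 within the slides of replicates 1 and 3, next to 0.45 and 0.54 for the first probe. Over the 5 arrays without NUDT16 replicate 2 the RELA probes followed each other at r = 0.98, a description over arrays that share slides in pairs.

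RELB read -3.34, -4.90 and -4.65 on mock replicates 1, 2 and 3, and -2.98, -2.77 and -3.98 on the NUDT16 replicates. As for RELA, NUDT16 replicate 2 was the highest array, and the groups overlapped. The means were -4.30 ± 0.84 (SD, n = 3) and -3.25 ± 0.65 (SD, n = 3), a log2 difference of 1.05 (limma standard error 0.66, or 0.42 with the replicate block). Within slides it was 0.36, 2.13 and 0.67, and 0.51 on replicates 1 and 3 alone. RELB on NUDT16 replicate 2 lay 0.75 above the limit of that array, while its mock partner lay 1.38 below it. Its unscaled intensity on NUDT16 replicate 2 (32.7) was the lowest of the 6 arrays, under the 90.5 of mock replicate 2. Without scaling the difference was 0.05, next to 0.26 for RELA.

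REL, the subunit most closely tied to lymphocytes, pointed the other way, except with normexp background correction, where its difference was 0.23. Mock replicates 1, 2 and 3 gave signals of -5.44, -4.73 and -3.27, against -6.95 and -3.48 on NUDT16 replicates 1 and 3, with no measurement on NUDT16 replicate 2. The log2 difference, NUDT16 minus mock, was -1.51 in the pair of replicate 1 and -0.21 in that of replicate 3. Replicate 1 minus replicate 3 was -2.17 within mock and -3.47 within NUDT16 arrays, wider than either difference within a slide. The mock signal on replicate 2 lay 1.21 below the limit of the NUDT16 array on that slide, so its absence there gives no difference. Over all arrays, the dim value included, the difference was -0.92 (limma standard error 0.89), and it was -0.14 without NUDT16 replicate 1, -0.31 without mock replicate 3, -0.73 without NUDT16 replicate 2, -1.40 without mock replicate 1 and -1.88 without NUDT16 replicate 3.

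The precursor subunits gave little. NFKB2 had mock signals of -5.66, -6.76 and -6.47, next to -5.20 and -6.56 on NUDT16 replicates 1 and 3, which differed from their partners by 0.47 and -0.09. NFKB1 was well above background on mock replicates 1 and 3 and NUDT16 replicate 3 alone, at -7.43, -7.13 and -6.90. On NUDT16 replicate 1 the call held for 1 of its 10 copies and on mock replicate 2 for 0 of 10. Where both arrays of a slide measured it, in replicate 3, NUDT16 was 0.23 higher.

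NFKBIA, the inhibitor that NF-kappaB resynthesises first after a stimulus, was the member measured best. Its 10 copies agreed to an SD of 0.018 to 0.064 on 5 arrays and of 0.17 on NUDT16 replicate 2, and all usable copies were well above background on every array. It read -0.98, -1.52 and -1.31 in mock and -1.38, -2.12 and -0.64 in NUDT16 replicates 1, 2 and 3. NUDT16 arrays were the lowest and the highest of the 6, so the groups overlapped fully. The means were -1.27 ± 0.27 (SD, n = 3) and -1.38 ± 0.74 (SD, n = 3), a log2 difference of -0.11 (limma standard error 0.62). The sign varied between slides, at -0.40, -0.60 and 0.67. The standard error leaves even changes well above its own size undetectable in either direction.

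NFKBIE, an inhibitor with a preference for pairs that contain REL or RELA, read -2.59, -3.16 and -3.62 in mock and -2.23, -3.28 and -3.47 in NUDT16 arrays. Partners on a slide differed by 0.37, -0.12 and 0.15, less than the 1.03 and 1.25 between replicates 1 and 3 of a group. Its means of -3.12 ± 0.52 (SD, n = 3) and -2.99 ± 0.67 (SD, n = 3) differed by 0.13 (limma standard error 0.63).

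NFKBIB, the third inhibitor, has a pair of probes, listed under NM_002503 and NR_040515; which transcripts each reads was not tested. Probe A_33_P3343545 read -4.07, -5.31 and -5.60 in mock and -3.63 and -5.30 in NUDT16 replicates 1 and 3, so NUDT16 was higher by 0.44 and 0.30. Probe A_23_P330895 read -5.71, -6.25 and -6.38 in mock and -6.10 and -6.40 in NUDT16 replicates 1 and 3, with differences of -0.39 and -0.02. The probes thus had opposite signs in these pairs.

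TNFAIP3, the ubiquitin-editing brake on the pathway that NF-kappaB itself induces, read -3.83, -3.88 and -2.92 in mock and -4.62 and -2.89 in NUDT16 replicates 1 and 3. The pair of replicate 1 differed by -0.80 and that of replicate 3 by 0.02. Its signal on NUDT16 replicate 2 was not well above background, and on mock replicate 2 it lay 0.36 below the limit of that array. With that dim value the difference was -0.89 (limma standard error 0.76), without NUDT16 replicate 2 it was -0.22, without mock replicate 3 -0.57 and without NUDT16 replicate 3 -1.65, and with normexp it was 0.18. BCL3, which binds p50 and p52 in the nucleus, was well above background on mock replicates 1 and 3 (-7.64 and -7.15) and on no other array. Its unscaled intensity was 37.4 and 33.3 there, 10.9 on mock replicate 2 and between 5.70 and 8.91 on the NUDT16 arrays. No fold is given for BCL3: its mock mean of -7.58 lay below -6.36, the mean of the limits of the NUDT16 arrays. On the slide of replicate 3 alone, the mock signal lay above the limit of its NUDT16 partner (-7.96).

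**Figure D2:**
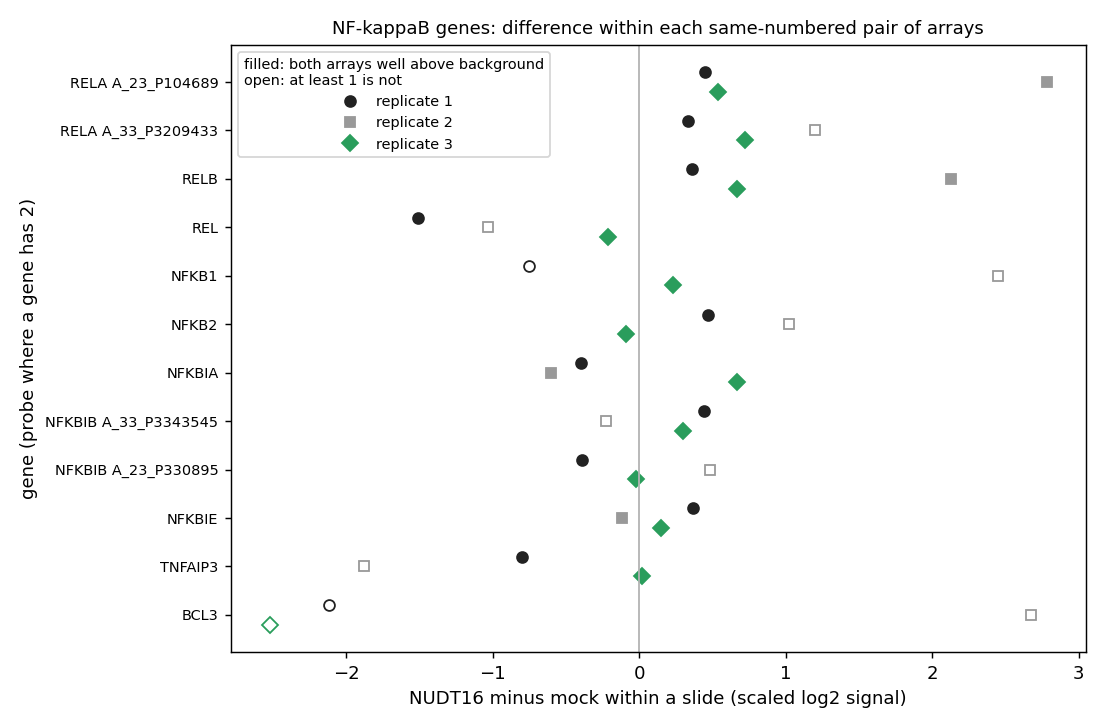
NUDT16 minus mock scaled log2 signal (horizontal axis) within each same-numbered pair of arrays for every NF-kappaB probe (vertical axis); filled symbols mark pairs in which both arrays were well above background, open symbols pairs in which at least 1 was not. The filled symbols of RELA and RELB all lie right of 0, with replicate 2 farthest at 2.78 and 2.13, and those of REL lie left of it at -1.51 and -0.21.

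Read against all probes, the family gave no call. limma with Benjamini-Hochberg adjustment at 0.05 called 0 of the 10 tested member probes, where 0.00563% of all tested probes were called, and 0 also with the replicate block, where the share was again 0.00563%. At an unadjusted p under 0.05 limma had 0 member probes without the block and 3 with it (REL, RELB and the first of RELA), next to 8 and 1734 of all probes (9.76% with the block). A fit on replicates 1 and 3 alone with the replicate block, which leaves 1 residual degree of freedom, called 3.45% of all tested probes and 0 of the 10, with 1 member probe (REL) at an unadjusted p under 0.05, where 18.1% of all tested probes were. The groups did not overlap for 0 of the 10 and for 0.591% of all. Since the family was chosen on this contrast, nothing is read from these counts. Over 8 genes, each by its brightest tested probe, 5 were higher and 3 lower in NUDT16 arrays, with a median log2 difference of 0.15; over all 13734 tested genes 6296 were higher and 7438 lower, with a median of -0.06. REL, TNFAIP3, NFKB2 and NFKBIB enter these counts with a value from NUDT16 replicate 2 that was not above background. In both of pairs 1 and 3, 4 of the 8 genes were higher and 1 lower, next to 3084 and 6242 of all tested genes.

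Members also differed between slides 1 and 3, which can be described separately within mock and within NUDT16 arrays. The contrast that chose the family used these same arrays, so the slide differences are not independent of that choice. The first RELA probe was higher on slide 1 than on slide 3 by 1.08 in mock and 1.0 in NUDT16 arrays, and the second by 1.83 and 1.44. RELB was higher by 1.31 and 1.0, NFKB2 by 0.81 and 1.37, NFKBIE by 1.03 and 1.25, and NFKBIB by 1.53 and 1.67 on probe A_33_P3343545. REL was lower on slide 1, with differences of -2.17 and -3.47, and so was TNFAIP3, with -0.91 and -1.73. The members thus fell on both sides: RELA, RELB, NFKB2 and the cytoplasmic inhibitors NFKBIB and NFKBIE were brighter on slide 1 in both groups, and REL and TNFAIP3 on slide 3. NFKBIA had opposite signs, at 0.34 and -0.74.

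At least 2-fold higher on slide 1 in both groups were 3 of 10 member probes (NFKBIE, A_33_P3343545 of NFKBIB and the second of RELA), where 8.97% of all tested probes were. RELB and the first RELA probe fell just short, at 0.9998 and 0.9975 in NUDT16 arrays where 2-fold is 1, so the count rests on where the line is drawn. At least 2-fold lower in both was 1 of 10 (REL), against 31.0% of all. The median over all tested probes was -0.35 in mock and -0.70 in NUDT16 arrays, and the slide difference in one group followed that in the other at r = 0.93 across 17765 probes, which are not independent. It went with the GC content of the probe at r = 0.26 in mock and r = 0.34 in NUDT16 arrays, across probes. Whether slide, scan or sample preparation gave these differences cannot be told apart, and the part of base composition was not tested.

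**Figure D3:**
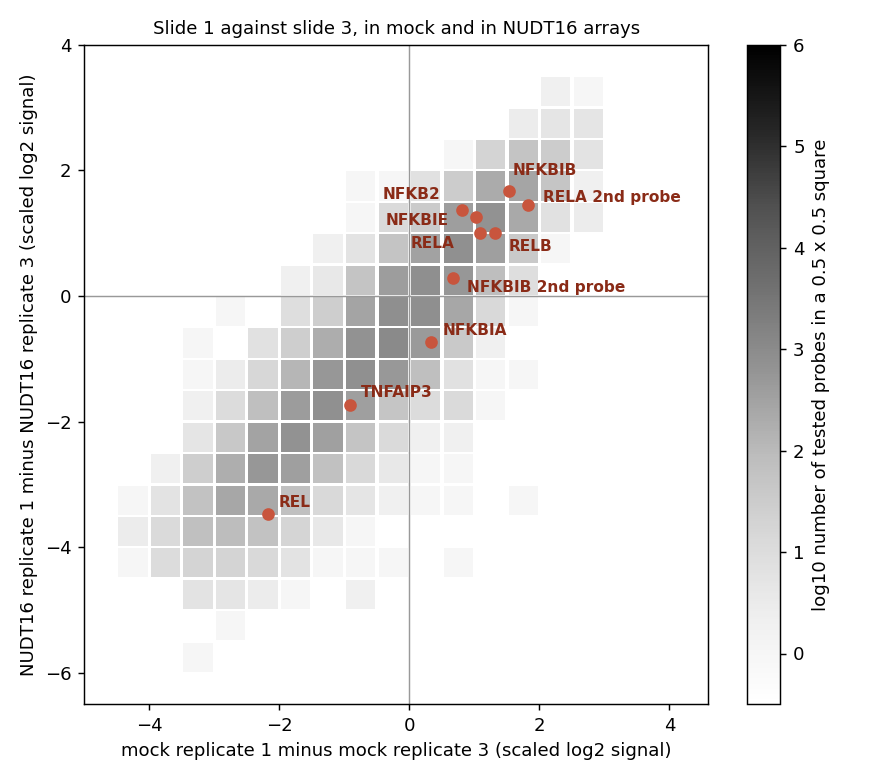
Replicate 1 minus replicate 3 in scaled log2 signal, in mock arrays (horizontal axis) and in NUDT16 arrays (vertical axis); grey squares count tested probes on a log10 scale and red points are the tested NF-kappaB probes. RELA, RELB, NFKB2, NFKBIB and NFKBIE lie in the upper right, REL at -2.17 and -3.47 and TNFAIP3 at -0.91 and -1.73 in the lower left.

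The array pattern of RELA was shared by RELB and by many genes outside the family. Over the 6 arrays RELB followed the first RELA probe at r = 0.97, and 35 of 6581 other probes measured on all arrays did so more closely. NFKBIE had r = 0.46 and NFKBIA r = -0.19, which 2479 and 4262 probes exceeded. The 5 genes with the highest r were LMBR1L (0.992), ZNF653 (0.991), BCR (0.991), PLOD3 (0.989) and KLC2 (0.989). LMBR1L, at -3.85, -5.92 and -5.03 in mock and -3.65, -3.26 and -4.67 in NUDT16 arrays, was likewise highest on NUDT16 replicate 2, at 0.27 above the limit of that array. KLC2 had this pattern well clear of that limit, by 2.91, with a difference of 1.57 in the pair of replicate 2 and of 0.11 and 0.41 in the others. Without NUDT16 replicate 2, over 5 arrays, RELB had r = 0.96 with RELA, NFKB2 0.88, NFKBIE 0.66, TNFAIP3 -0.37 and REL -0.56. The NFKBIB probes had 0.80 (A_33_P3343545) and 0.49 (A_23_P330895), and NFKBIA had 0.37, so its sign changed. NFKB1 and BCL3, which were at background on several arrays, had 0.08 and -0.48. How many other probes exceeded these values over 5 arrays was not counted, so they are not read as particular to the family.

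The genes that carry signals to NF-kappaB showed no common direction. Of 55 listed symbols (receptors, adaptors, the kinases of the IkappaB kinase complex, the linear ubiquitin ligase and deubiquitinases), 54 were on the array, 38 had a tested probe and 14 were measured on all 6 arrays. limma called 0 with or without the replicate block. Of the tested genes 16 were higher and 22 lower, with a median log2 difference of -0.07 next to -0.06 for all genes. Genes not measured on all 6 arrays enter with at least 1 value that was not well above background. Over the 14 measured on all 6 arrays the median was 0.21, next to 0.16 for all probes so measured. In both of pairs 1 and 3, 13 of the 38 were higher and 15 lower, next to 3084 and 6242 of all tested genes. The highest among those measured on all arrays was MAP3K14, the kinase NIK that starts processing of the NFKB2 precursor, which averaged -5.82 ± 1.04 (SD, n = 3) over the mock and -4.51 ± 1.20 (SD, n = 3) over the NUDT16 arrays. Its difference of 1.31 (limma standard error 0.77) came from 0.05, 3.33 and 0.57 within slides, with NUDT16 replicate 2 only 0.25 above the limit of that array. TRAF2, an adaptor of tumour necrosis factor receptors, followed at 0.78 (standard error 0.69) and SHARPIN, a subunit of the linear ubiquitin ligase, at 0.66 (0.66), each positive in 3 of 3 pairs. The lowest measured on all arrays were TAX1BP1, an adaptor that works with TNFAIP3, at -1.25 (0.82), UBE2V1 at -0.75 (0.66) and SKP1, part of the ligase that marks phosphorylated inhibitors for destruction, at -0.42 (0.58). TAX1BP1 and UBE2V1 were lower in 3 of 3 pairs and SKP1 in 2 of 3. The genes named were picked as the extremes of the list, so the agreement of sign between pairs is not read as a result.

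Known targets of NF-kappaB outside the family were likewise spread around 0. Of 50 listed symbols 49 were on the array, 22 had a tested probe and 12 were measured on all 6 arrays. limma called 0 with or without the block. Of the tested genes 10 were higher and 12 lower, with a median of -0.15 next to -0.06 for all genes. Over those measured on all 6 arrays the median was -0.03, next to 0.16 for all probes so measured. In both of pairs 1 and 3, 8 of the 22 were higher and 7 lower, next to 3084 and 6242 of all tested genes. CD86, a costimulatory ligand, was highest at 1.19 (standard error 1.15), with -0.47, 2.10 and 1.94 within slides. GADD45B, a stress-induced survival gene, was higher by 0.51, 0.63 and 0.64 within slides, a mean difference of 0.59 (0.62) and the most even of those named; its groups overlapped. STAT5A was higher by 0.21, 1.13 and 0.42 (mean 0.59, standard error 0.58). The lowest were SOD2, the mitochondrial superoxide dismutase, at -1.06 (0.73), TNFAIP8 at -0.99 (0.82) and CFLAR, which blocks caspase activation, at -0.42 (0.73). SOD2 and TNFAIP8 were lower in 3 of 3 pairs and brighter on slide 3 than on slide 1 in both groups. These targets too were named as extremes of their list, and nothing is read from the agreement of sign.

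**Figure D4:**
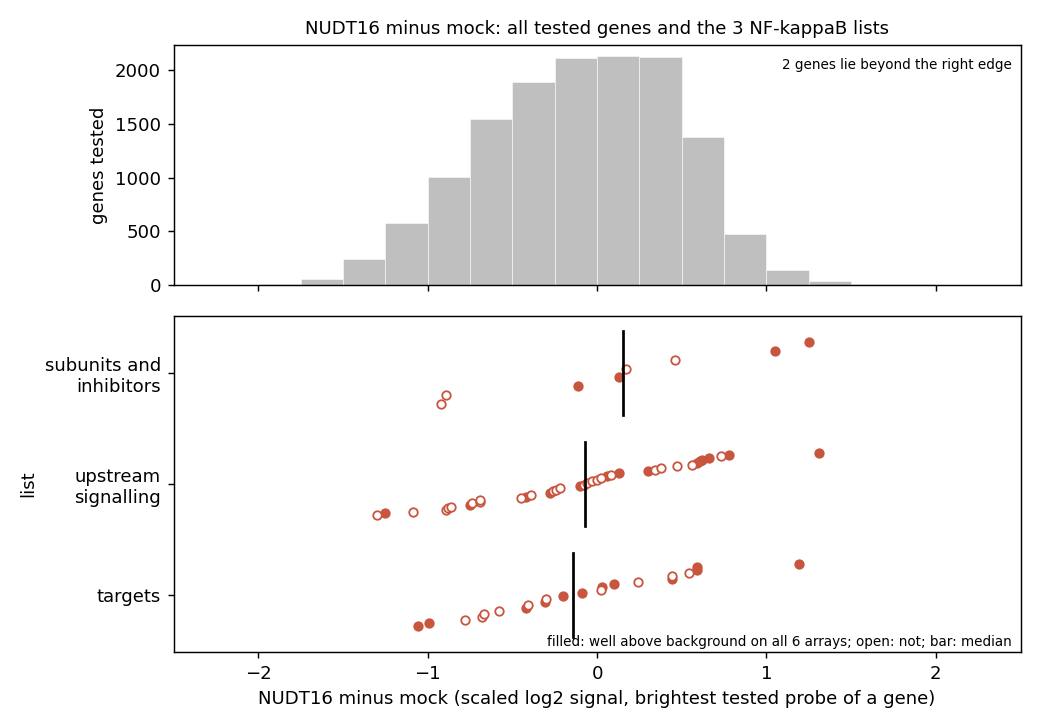
NUDT16 minus mock scaled log2 signal (horizontal axis): above, the number of tested genes in bins of 0.25; below, each tested gene of the family, of the upstream list and of the target list, filled where well above background on all 6 arrays, with a bar at the median. The list medians of 0.15, -0.07 and -0.15 lie near the median of -0.06 of all genes, and no listed gene lies beyond 1.31 on the right.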

How the data were processed

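Cap-immunoprecipitated RNA of MOLT-4 cells was measured on 6 Agilent arrays (design 039494), 3 mock and 3 NUDT16, grouped and numbered by title. The deposited scanner files hold intensity per spot; per the file headers, Feature Extraction 10.7.3.1 subtracted background, detrended within the array and put surrogates in for dim spots, without normalization between arrays. The submitters' processing notes name Agilent Feature Extraction and limma. The authors' deposited table is on the log2 scale; its steps are not given in the sources used here, and it ranked probes on each array exactly as background-subtracted median intensity does (Spearman's rho 1).

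Control and outlier spots were dropped, and log2 processed intensity was averaged per probe (13 probes without a usable spot were dropped). Because under 50% of probes were detected, the scale was set by subtracting, per array, the 75th percentile of the 6582 probes detected on all arrays. Detected means that over 50% of a probe's spots were well above background. Probes detected on all 3 arrays of a group entered the fit (17765 probes, R 4.3.3, limma 3.58.1), without a block, two-sided, with Benjamini-Hochberg adjustment at 0.05. The procedure was tested on simulated data drawn as independent arrays. That simulation had no slide pairs and no detection limit, so it does not cover these features of the data. A gene's brightest tested probe stood for it. No value column was unmapped (0).

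Same-numbered arrays shared slides, and their deviations from the group means had correlations of 0.84, 0.39 and 0.77, so the numbers pair the arrays. Members and gene lists were chosen with earlier results of these data known. Genes named are all members, the 3 highest and 3 lowest of each list among those detected on all arrays, the 5 most correlated with RELA and cell type markers. Some marker results are not reported here. Of the 12 member probes, the accessions of 11 matched a RefSeq gene table (GRCh38.p14) under the same symbol. Other settings were the percentile over all probes, quantile normalization, no scaling, normexp background correction (offset 50), the authors' table, no filter, detection required on all arrays, the replicate block, the mean of a gene's probes, and leaving out arrays; replicates 1 and 3 alone were added after the data were seen.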

Additional observations from a re-analysis of the deposited data

How the results depend on the processing

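The count of 1 called probe, which is not a member, was 0 without scaling, with normexp, with the authors' deposited table, without the filter and with the filter on all 6 arrays, where limma had 1, 1, 10, 160 and 2 probes at an unadjusted p under 0.05; it was 0 to 1 when an array was left out (0 without mock replicate 2, with 1 at an unadjusted p under 0.05). The filter on all 6 arrays left the called probe out before the fit, since that probe was at background on the mock arrays. On replicates 1 and 3 alone with the replicate block the count was 613, and the cause was not tested. The replicate block over all arrays kept 1 call and changed no call of a listed gene. No setting called a member. Counting the main fit, RELA (first probe, or the mean of its probes) was positive in 16 of 16 settings (0.26 to 1.79). RELB was positive in 15 of 15 (0.05 to 1.53). The filter and block settings cannot change these differences, and the family was chosen on this contrast, so nothing is read from these counts. The second RELA probe was negative without scaling (-0.25) and with quantile normalization (-0.46). REL and TNFAIP3 were negative in 13 of 14 settings each, from -1.91, with 0.23 and 0.18 under normexp. Leaving out 1 array gave -1.88 to -0.14 and -1.65 to -0.22. Both genes entered the fit through the mock arrays alone. Most settings include their values on NUDT16 replicate 2, which were not well above background, so nothing is read from these counts either. NFKB2, NFKBIA, NFKBIB and NFKBIE changed sign in 3 of 14, 6 of 15, 5 of 15 and 3 of 15 settings. The overall median of -0.11 became -0.26 (quantile), -1.10 (none), 0.47 (normexp), -0.21 (authors' table) and 0.73 (no filter). Relative to the median of each setting, over all settings, RELA lay at 0.52 to 1.95 by its first probe and at -0.20 to 1.65 by its second. RELB lay at 0.32 to 1.71, REL at -1.65 to -0.18 and TNFAIP3 at -1.65 to -0.06. The lowest values of RELB and the first RELA probe came without the filter. The family's median lay between -0.85 (no scaling) and 0.66 (normexp). Without NUDT16 replicate 2 the RELA and RELB differences were 1.03 and 0.81, and without mock replicate 2 they were 0.72 and 0.75. Each of these fits keeps the slide partner of the array left out. On replicates 1 and 3 alone, without either array of that slide, the RELA and RELB differences were 0.49 and 0.51. On NUDT16 replicate 2 signal over background was too low to measure 8 of the 12 member probes.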
